A study of Homo sapiens with 3 samples.

Results

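The genes described here are 7 of the 36601 genes counted: vimentin (VIM), the keratins KRT8, KRT18, KRT19 and KRT7, the calcium-binding protein S100A11 and annexin A2 (ANXA2). They were taken as a given list and matched by symbol, and all 7 were found. The samples were pancreatic islet-like clusters made from the human embryonic stem cell line HUES8, a long-established line, and were measured by 10x Chromium single-cell RNA-seq, in which each barcode stands for 1 cell and each unique molecular identifier (UMI) for 1 captured transcript. There were 3 libraries, 1 each of cells sorted magnetically as CD49a-positive, cells sorted as CD49a-negative, and unsorted cells; CD49a is the integrin subunit encoded by ITGA1. All 3 came from clusters of the same line and were reaggregated for 7 days, and none carried a genetic change that the labels name. Whether they came from 1 differentiation is not given in the sources used here.

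Cells were grouped by 4 genes that are not among the 7. A cell was called GCG-rich (the alpha-cell hormone glucagon), SST-rich (the delta-cell hormone somatostatin), TPH1-rich (the serotonin-synthesis enzyme of enterochromaffin-like cells) or INS-rich (the beta-cell hormone insulin) when 1 of those genes, and no other, reached 0.2 of its own 99th percentile over all kept cells, in CPM, which are UMIs scaled to the total UMIs of the cell. The CD49a-positive library held 192 GCG-rich, 35 SST-rich, 69 TPH1-rich and 1431 INS-rich cells. The CD49a-negative library held 407 GCG-rich, 94 SST-rich, 309 TPH1-rich and 359 INS-rich cells. The unsorted library held 350 GCG-rich, 69 SST-rich, 307 TPH1-rich and 713 INS-rich cells. Cells past no cut were called unlabelled and numbered 577, 712 and 701 in the CD49a-positive, CD49a-negative and unsorted libraries. The classes are ranges of a measured level: 317 cells lay within 25% of the GCG cut, 99 of the SST cut, 315 of the TPH1 cut and 654 of the INS cut.

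Vimentin and keratins are intermediate filament proteins, the rope-like fibres that give a cell mechanical strength. Keratins form filaments only as pairs of a type II with a type I chain, and KRT8 with KRT18 is the pair of simple epithelia, pancreas included; KRT7 (type II) and KRT19 (type I) are added in ducts. Vimentin assembles alone and is the usual filament of mesenchymal cells, and it is often read with keratins when epithelial and mesenchymal states are compared. S100A11 binds annexins in response to calcium, and ANXA2 is a membrane- and actin-binding protein best known in a complex with S100A10. In the GENCODE 29 annotation (GRCh38) VIM (ENSG00000026025) lies on chromosome 10 at 17228259 to 17237593 on the plus strand, KRT19 (ENSG00000171345) on chromosome 17 at 41523617 to 41528308 on the minus strand, and KRT7 (ENSG00000135480) on chromosome 12 at 52232520 to 52252186 on the plus strand. S100A11 (ENSG00000163191) lies on chromosome 1 at 152032506 to 152047907 and ANXA2 (ENSG00000182718) on chromosome 15 at 60347134 to 60402883, both on the minus strand.

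Of the 7 genes, 4 had an entry in the RefSeq table of promoter windows (GRCh38.p14, 250 bases before to 50 bases after the annotated start): VIM, KRT8, S100A11 and ANXA2. The 3 windows below are shown for the gene with the largest difference from INS-rich cells (VIM), the gene that was lowest in SST-rich cells (S100A11) and the gene with the fewest UMIs (ANXA2), and they differ in base composition. They are written 5′ to 3′ on the gene's own strand, and capitals mark motif matches found on either strand. The motifs searched were the GC box bound by the Sp family, spelled GGGCGG here. The AP-1 site was searched as TGANTCA, where N is any base. The TATA box, a core-promoter element upstream of the transcription start in some genes, was looked for with the spelling TATAAA. The windows lie at chr10:17227991-17228290 on the plus strand (VIM), chr1:152036955-152037254 on the minus strand (S100A11) and chr15:60397937-60398236 on the minus strand (ANXA2).
VIM: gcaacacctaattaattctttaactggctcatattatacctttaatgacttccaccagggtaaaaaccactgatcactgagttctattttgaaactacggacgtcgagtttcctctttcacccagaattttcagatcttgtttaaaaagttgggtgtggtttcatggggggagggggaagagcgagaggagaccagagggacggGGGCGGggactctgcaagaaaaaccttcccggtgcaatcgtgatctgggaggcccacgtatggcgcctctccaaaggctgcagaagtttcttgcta
S100A11: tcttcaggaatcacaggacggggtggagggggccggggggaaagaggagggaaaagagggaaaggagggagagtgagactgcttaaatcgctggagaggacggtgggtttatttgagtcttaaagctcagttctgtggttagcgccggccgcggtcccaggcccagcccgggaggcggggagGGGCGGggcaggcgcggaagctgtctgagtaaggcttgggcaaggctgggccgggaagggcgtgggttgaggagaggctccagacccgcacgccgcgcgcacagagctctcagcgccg
ANXA2: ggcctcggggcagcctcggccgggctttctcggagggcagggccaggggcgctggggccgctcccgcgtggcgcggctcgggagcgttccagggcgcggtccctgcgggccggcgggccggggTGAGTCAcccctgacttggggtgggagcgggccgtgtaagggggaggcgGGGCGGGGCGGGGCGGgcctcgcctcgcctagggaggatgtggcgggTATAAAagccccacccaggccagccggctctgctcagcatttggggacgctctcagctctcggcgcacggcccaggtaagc
The VIM window held 1 GC box, the S100A11 window 1 GC box, and the ANXA2 window 3 GC boxes in a row that share letters, 1 AP-1 match and 1 TATA match. The KRT8 window at chr12:52926420-52926719 (minus strand) held none of the 3. GC content was 48% for VIM, 65.3% for S100A11 and 76% for ANXA2. Among all 35116 windows of this length, 45.0% held the GC box, 7.71% the AP-1 motif and 11.5% the TATA motif. A match describes the letters of the window only.

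After barcodes with fewer than 1000 genes or more than 20% mitochondrial UMIs were set aside, 2394 CD49a-positive, 1976 CD49a-negative and 2256 unsorted cells remained, with median depths of 48538.5, 36997 and 42361 UMIs. The filter took 46.9% of barcodes from the CD49a-positive library, against 23.0% from the CD49a-negative and 19.7% from the unsorted library. At most 6 barcodes were shared between any pair of libraries. The class names could be checked on marker genes not used for the cuts. IRX1, a transcription factor of alpha cells, was higher in GCG-rich than in INS-rich cells (log2 fold change 1.69), HHEX, the delta-cell factor, was higher in SST-rich cells (4.78), and FEV, the serotonin-lineage factor, was higher in TPH1-rich cells (2.55). IAPP, the amyloid peptide co-secreted with insulin, was lower in GCG-rich than in INS-rich cells (-2.44). Median depth differed between classes and is given where it bears on a result.

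VIM differed most of the 7 between GCG-rich or SST-rich cells and TPH1-rich or INS-rich cells. In GCG-rich cells it stood at 678, 986 and 765 CPM in the CD49a-positive, CD49a-negative and unsorted libraries. In SST-rich cells it stood at 339, 606 and 395 CPM in the CD49a-positive, CD49a-negative and unsorted libraries. TPH1-rich cells had 107, 207 and 188 CPM in those libraries, and INS-rich cells had 67.5, 192 and 117 CPM. Every GCG-rich value lay above every SST-rich value, and every SST-rich value above every TPH1-rich and INS-rich value, whereas the TPH1-rich and INS-rich ranges overlapped. As means over the 3 libraries VIM was 810 ± 159 CPM in GCG-rich, 447 ± 141 in SST-rich, 167 ± 52.9 in TPH1-rich and 125 ± 62.5 in INS-rich cells (SD, n = 3 libraries, each a different sorted fraction).

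**Figure D1:**
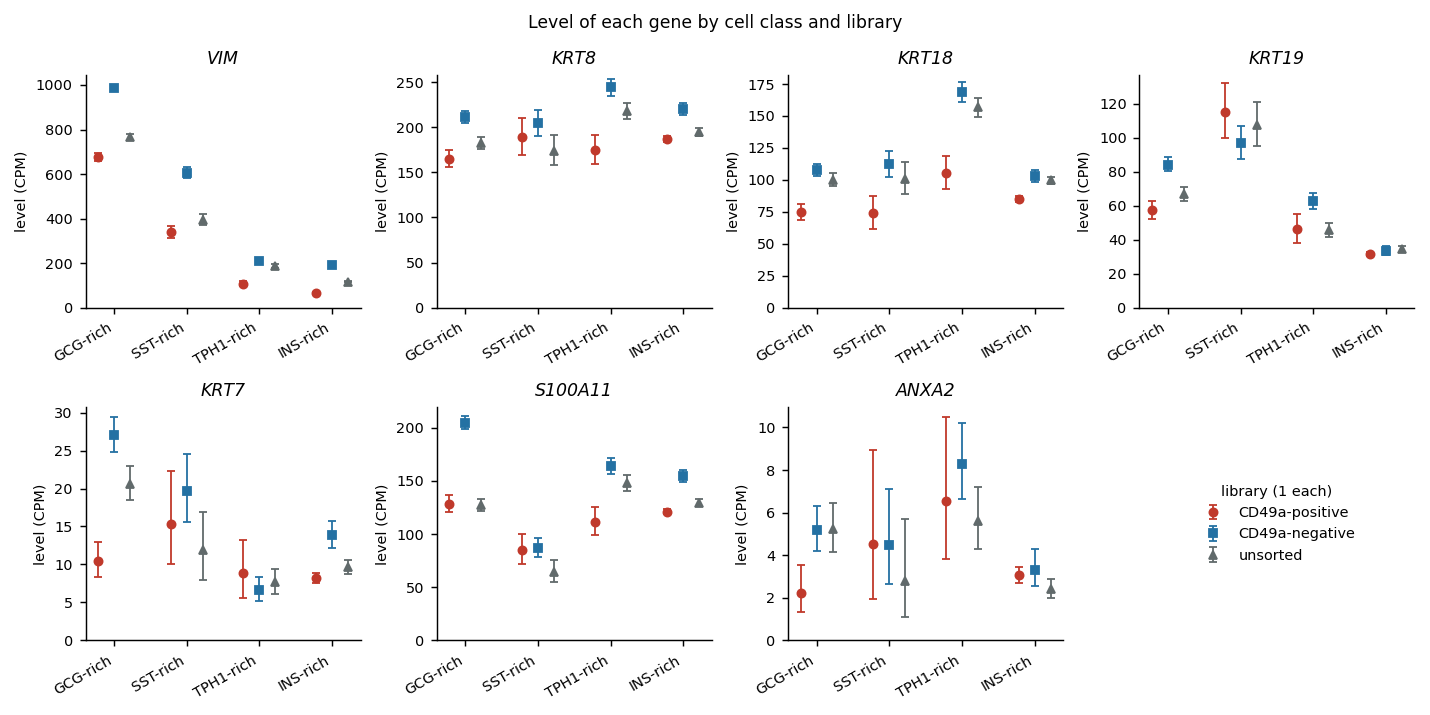
UMI level of each of the 7 genes (CPM, each panel with its own axis from 0) in GCG-rich, SST-rich, TPH1-rich and INS-rich cells of the CD49a-positive, CD49a-negative and unsorted libraries. Points are sums over all cells of a class in 1 library and bars are exact 95% Poisson intervals. VIM steps down between GCG-rich, SST-rich and the other classes, KRT19 is highest in SST-rich and KRT18 in TPH1-rich cells within each library, and KRT8 differs little between classes.

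The class differences were tested with edgeR's quasi-likelihood test on the 12 sums of library and class, with the library as a block and Benjamini-Hochberg adjustment over 17435 genes; a gene was called at an adjusted p under 0.05. Such p-values measure how far the class difference varies among 3 differently sorted libraries of 1 line. VIM rose in GCG-rich over INS-rich cells by a log2 fold change of 2.79 ± 0.14 (SE, adjusted p = 6.68e-10), with folds of 10.1, 5.15 and 6.56 within the CD49a-positive, CD49a-negative and unsorted libraries. Only 185 of the 17435 genes, VIM included, differed by as much. In SST-rich over INS-rich cells VIM rose by 1.80 ± 0.14 (adjusted p = 2.11e-07), and in SST-rich over GCG-rich cells it fell, at -0.99 (adjusted p = 7.57e-05). VIM was higher in GCG-rich than in TPH1-rich cells by 2.48 (adjusted p = 1.08e-09) and higher in SST-rich than in TPH1-rich cells by 1.49 (adjusted p = 1.33e-06). TPH1-rich against INS-rich cells was the 1 neighbouring pair in this order that did not pass (0.31 ± 0.14, adjusted p = 0.0856).

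Large shares of all genes passed in these contrasts, so a call by itself says little about the list. In GCG-rich over INS-rich cells 3 of the 7 genes were called, where 38.1% of all genes tested were. In SST-rich over INS-rich cells 3 of 7 were called, against 23.6% of all genes, and in TPH1-rich over INS-rich cells 4 of 7, against 40.5%. Between the other classes the counts were 4 of 7 in GCG-rich over TPH1-rich cells (50% of all genes), 3 of 7 in SST-rich over GCG-rich cells (20.2%) and 5 of 7 in SST-rich over TPH1-rich cells (29.8%).

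Per cell, VIM was spread through most of the GCG-rich class and less evenly through the SST-rich class. The median GCG-rich cell had 585, 940 and 647 CPM of VIM in the CD49a-positive, CD49a-negative and unsorted libraries, and 60.9%, 83.5% and 67.1% of GCG-rich cells reached 500 CPM. The median SST-rich cell had 72.9, 350 and 238 CPM, and 14.3%, 39.4% and 29% reached 500 CPM. The 10 SST-rich cells with the most VIM UMIs held 87.4% of them in the CD49a-positive, 44.7% in the CD49a-negative and 55.4% in the unsorted library, so the CD49a-positive SST-rich level rests on few of its 35 cells. Median VIM was 0, 25.3 and 0 CPM in TPH1-rich cells and 0, 21.0 and 12.3 CPM in INS-rich cells of the same libraries. At 500 CPM or more were 7.25%, 12.3% and 9.45% of TPH1-rich and 2.31%, 8.36% and 5.33% of INS-rich cells.

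**Figure D2:**
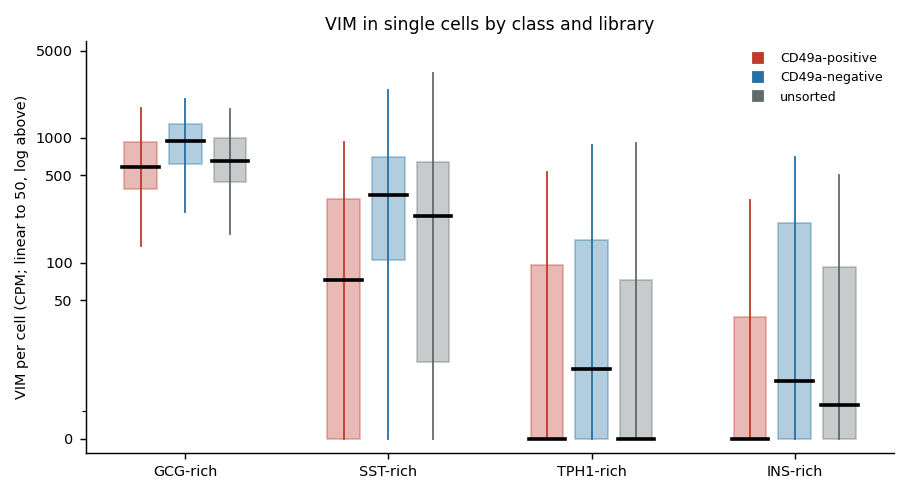
VIM per cell (CPM, axis linear up to 50 and logarithmic above) in GCG-rich, SST-rich, TPH1-rich and INS-rich cells of each library. The line in each box is the median, the box spans the 25th to 75th percentile and the thin line the 5th to 95th; GCG-rich medians lie at 585 CPM and above, and TPH1-rich and INS-rich medians at 25.3 CPM and below.

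Depth differed between classes, with medians of 29747, 29816 and 30684 UMIs in TPH1-rich and 55273, 44609 and 59638 UMIs in INS-rich cells of the CD49a-positive, CD49a-negative and unsorted libraries. With every cell thinned to 10000 UMIs, 97.1%, 99.2% and 96.7% of GCG-rich cells still had a VIM UMI. The thinned shares were 58.8%, 82.8% and 63.2% of SST-rich, 30%, 41.3% and 28.9% of TPH1-rich and 24.0%, 41.5% and 32.0% of INS-rich cells. Without thinning, they were 99%, 99.5% and 99.1% of GCG-rich, 71.4%, 88.3% and 81.2% of SST-rich, 39.1%, 55.3% and 43.6% of TPH1-rich and 42.6%, 55.2% and 54.0% of INS-rich cells. GCG itself, which INS-rich cells should hold little of, gave a UMI in 61.9%, 81.5% and 80.8% of thinned INS-rich cells. Where the VIM UMIs of INS-rich cells come from was not tested.

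VIM in INS-rich and TPH1-rich cells was lower among cells low in GCG. Restricting INS-rich cells to those under 1000 CPM of GCG left 1221, 261 and 554 cells, whose VIM was 42.4, 83.3 and 55.5 CPM in the CD49a-positive, CD49a-negative and unsorted libraries, against 67.5, 192 and 117 CPM in all INS-rich cells. In TPH1-rich cells the same restriction gave 48.3, 185 and 137 CPM, against 107, 207 and 188 CPM in all of them. In SST-rich cells it gave 368, 555 and 356 CPM, against 339, 606 and 395 CPM in all of them, so the CD49a-positive SST-rich value was higher with the restriction. VIM thus stayed higher in SST-rich than in INS-rich cells in all 3 libraries among cells low in GCG, and under this restriction VIM passed the test in TPH1-rich over INS-rich cells at 0.86 (adjusted p = 0.00189). Cells past both the INS and the GCG cut, which were kept out of the classes, had 341, 613 and 422 CPM of VIM (39, 33 and 35 cells in the CD49a-positive, CD49a-negative and unsorted libraries).

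KRT19, the type I keratin of duct-type epithelium, ran in another order. SST-rich cells had 115, 97.1 and 107 CPM of KRT19 in the CD49a-positive, CD49a-negative and unsorted libraries, GCG-rich cells 57.5, 84.2 and 66.7 CPM, TPH1-rich cells 46.2, 62.8 and 45.8 CPM, and INS-rich cells 31.3, 33.6 and 34.6 CPM. Every SST-rich value was above every GCG-rich value and every INS-rich value below all others, whereas GCG-rich and TPH1-rich ranges overlapped. Relative to INS-rich cells KRT19 rose in SST-rich cells (log2 fold change 1.54 ± 0.12 SE, adjusted p = 2.51e-07), in GCG-rich cells (1.05 ± 0.11, adjusted p = 1.19e-06) and in TPH1-rich cells (0.44 ± 0.12, adjusted p = 0.00720). The last of these lost its call without the CD49a-negative library, at 0.27. Between neighbours, SST-rich exceeded GCG-rich cells by 0.49 (adjusted p = 0.00910) and GCG-rich exceeded TPH1-rich cells by 0.61 (adjusted p = 4.30e-04).

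KRT7, the type II keratin of ducts, was low everywhere. It stood at 10.4, 27.0 and 20.6 CPM in GCG-rich, 15.3, 19.7 and 11.9 CPM in SST-rich, 8.85, 6.61 and 7.63 CPM in TPH1-rich and 8.23, 13.9 and 9.66 CPM in INS-rich cells of the CD49a-positive, CD49a-negative and unsorted libraries. It rose in GCG-rich over INS-rich cells by 0.88 ± 0.16 (adjusted p = 3.94e-04) and in GCG-rich over TPH1-rich cells by 1.68 (adjusted p = 6.50e-06). In SST-rich over TPH1-rich cells it rose by 1.23 (adjusted p = 0.00320). KRT7 was called lower in TPH1-rich than in INS-rich cells (-0.80 ± 0.21, adjusted p = 0.00703), but the fold was 1.08 in the CD49a-positive, 0.476 in the CD49a-negative and 0.790 in the unsorted library, and without the CD49a-negative library the value was -0.46 and no longer called, as was -0.66 without the library block. The other duct markers on the fixed list, KRT19 and KRT7 left out, summed over 6 genes to 12.5, 12.8 and 11.5 CPM in GCG-rich, 6.24, 18.7 and 23.0 CPM in SST-rich, 25, 35.7 and 39.5 CPM in TPH1-rich and 9.60, 14.1 and 10.4 CPM in INS-rich cells. Those sums were highest in TPH1-rich cells, where neither KRT19 nor KRT7 was highest.

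KRT8, the type II chain of simple epithelia, was the most even of the keratins. It stood at 165, 211 and 183 CPM in GCG-rich, 189, 204 and 174 CPM in SST-rich, 175, 244 and 218 CPM in TPH1-rich and 187, 220.3 and 195 CPM in INS-rich cells of the CD49a-positive, CD49a-negative and unsorted libraries. All 4 ranges overlapped, and KRT8 was called in none of the 3 contrasts over INS-rich cells. Its partner KRT18 stood at 105, 169 and 157 CPM in TPH1-rich cells, against 85.0, 103 and 99.6 CPM in INS-rich, 74.6, 107 and 100.1 CPM in GCG-rich and 73.7, 112 and 101 CPM in SST-rich cells. Within each library TPH1-rich cells were the highest of the 4 classes. KRT18 rose in TPH1-rich over INS-rich cells by 0.39 ± 0.08 (adjusted p = 0.000985). It was lower in GCG-rich than in TPH1-rich cells (-0.43, adjusted p = 3.20e-04) and lower in SST-rich than in TPH1-rich cells (-0.51, adjusted p = 5.50e-04). The TPH1-rich over INS-rich call was lost without the unsorted library (0.33), without the library block (0.42) and with the class cut set at 0.1 of the percentile (0.24).

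The UMI ratio within the pair therefore differed by class. There were 1.67 KRT8 UMIs per KRT18 UMI in TPH1-rich cells of the CD49a-positive library (exact 95% interval 1.43 to 1.94), 1.45 in the CD49a-negative (1.36 to 1.54) and 1.39 in the unsorted library (1.31 to 1.48). INS-rich cells had 2.20 (2.14 to 2.26), 2.14 (2.03 to 2.27) and 1.96 (1.89 to 2.03) KRT8 UMIs per KRT18 UMI in those libraries. In each library the TPH1-rich and INS-rich intervals were apart. GCG-rich cells had 2.22, 1.96 and 1.83, and SST-rich cells 2.56, 1.82 and 1.73 in the CD49a-positive, CD49a-negative and unsorted libraries. Within each class the point value was highest in the CD49a-positive library, although its interval overlapped that of the CD49a-negative library in GCG-rich, TPH1-rich and INS-rich cells, and that of the unsorted library in TPH1-rich cells. It is a ratio of captured UMIs, not per length, and does not give the ratio of transcripts or proteins. Intervals here and elsewhere cover counting error only.

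**Figure D3:**
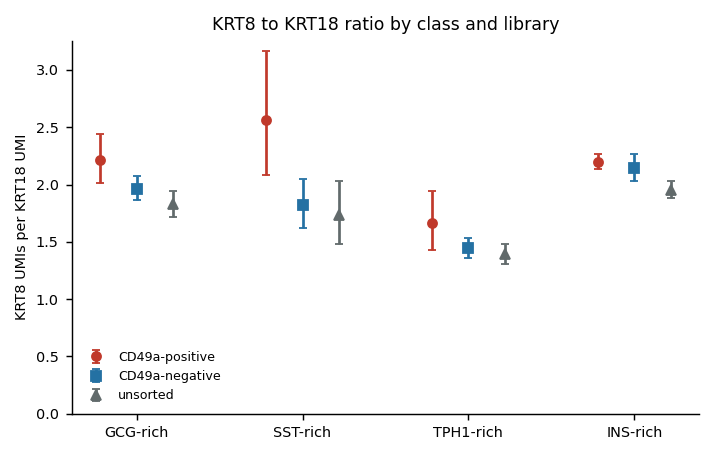
KRT8 UMIs per KRT18 UMI (linear axis) in GCG-rich, SST-rich, TPH1-rich and INS-rich cells of each library, with exact 95% intervals that cover counting error only. TPH1-rich cells lie at 1.39 to 1.67, and INS-rich cells at 1.96 to 2.20.

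Across single cells the pair also ran together most clearly in the TPH1-rich class. The correlation of log2(CPM + 100) of KRT8 with KRT18 over TPH1-rich cells was 0.53, 0.67 and 0.65 in the CD49a-positive, CD49a-negative and unsorted libraries, and 0.30, 0.44 and 0.52 with cells thinned to 10000 UMIs. Over thinned INS-rich cells it was 0.08, 0.22 and 0.09, over GCG-rich cells 0.05, 0.13 and 0.15, and over SST-rich cells 0.41, -0.02 and 0.31. Cells of 1 library share its preparation, so these values are descriptions over cells of 1 library each. In the same annotation KRT8 (ENSG00000170421, chromosome 12, 52897187 to 52949954, minus strand) and KRT18 (ENSG00000111057, chromosome 12, 52948871 to 52952901, plus strand) overlap by 1084 bases on opposite strands. The strand setting of the counting is not given in the sources used here, so reads from the shared stretch could not be assigned to 1 of them independently.

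S100A11, the calcium-binding annexin partner, was lowest in SST-rich cells in every library. They had 85.1, 87.1 and 64.5 CPM of S100A11 in the CD49a-positive, CD49a-negative and unsorted libraries, against 129, 205 and 127 CPM in GCG-rich, 112, 164 and 148 CPM in TPH1-rich and 121, 155 and 129 CPM in INS-rich cells. No SST-rich value reached any value of the other classes, whose ranges overlapped each other. S100A11 fell in SST-rich over INS-rich cells, at -0.91 ± 0.13 (adjusted p = 6.80e-05), in SST-rich over GCG-rich cells, at -1.07 (adjusted p = 1.75e-05), and in SST-rich over TPH1-rich cells, at -0.80 (adjusted p = 2.43e-04). As sums over the class, SST-rich cells were thus above INS-rich cells in VIM and KRT19 and below them in S100A11. The sums do not show that single cells held this profile. The correlation of VIM with KRT19 over SST-rich cells was 0.06, -0.07 and -0.18 in the CD49a-positive, CD49a-negative and unsorted libraries. It was computed as for KRT8 with KRT18, and was 0.03, 0.02 and 0.004 with cells thinned to 10000 UMIs. In GCG-rich over INS-rich cells S100A11 was not called (0.16, adjusted p = 0.254).

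ANXA2 was low in all 4 classes, with 2.23, 5.17 and 5.21 CPM in GCG-rich, 4.54, 4.49 and 2.77 CPM in SST-rich, 6.54, 8.28 and 5.60 CPM in TPH1-rich and 3.05, 3.33 and 2.40 CPM in INS-rich cells of the CD49a-positive, CD49a-negative and unsorted libraries. Few UMIs stand behind these levels: 17, 89 and 61 in TPH1-rich and 8, 18 and 7 in SST-rich cells of those libraries. Every TPH1-rich value was above every INS-rich value, and the within-library folds were 2.15, 2.49 and 2.34. In the CD49a-positive library 1 TPH1-rich cell held at least 10 of the 17 UMIs, so that level and its fold of 2.15 rest largely on 1 cell. In the CD49a-negative library 1 TPH1-rich cell held at least 10 of the 89 UMIs. ANXA2 rose in TPH1-rich over INS-rich cells by 0.98 ± 0.24 (adjusted p = 0.00370); the call was lost without the CD49a-negative library (0.89) and with cells thinned to 10000 UMIs (0.86). S100A10, the light chain that binds ANXA2, also rose in TPH1-rich over INS-rich cells, by 0.95 (adjusted p = 2.04e-05), at 212, 411 and 343 CPM in TPH1-rich against 126, 167 and 138 CPM in INS-rich cells of the CD49a-positive, CD49a-negative and unsorted libraries. In GCG-rich over INS-rich cells ANXA2 was not called (0.56, adjusted p = 0.0613), with folds of 0.732, 1.55 and 2.17 in those libraries.

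**Figure D4:**
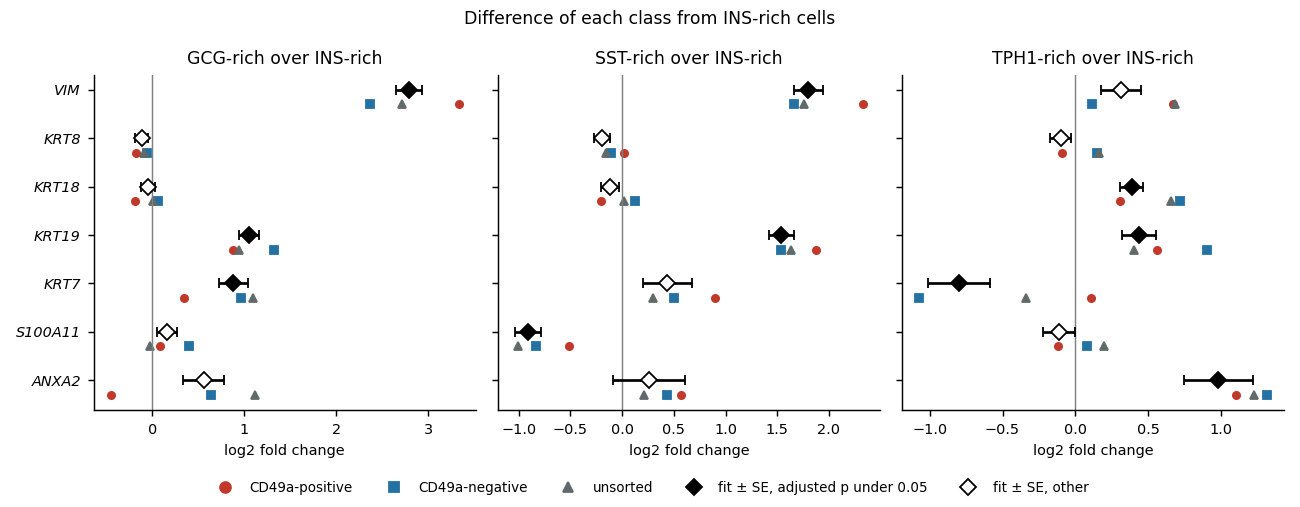
Log2 fold change of each of the 7 genes in GCG-rich, SST-rich and TPH1-rich over INS-rich cells. Diamonds are edgeR estimates with standard errors, filled where the adjusted p is under 0.05, and coloured points are the unscaled CPM folds within each library; VIM reaches 2.79 in GCG-rich and 1.80 in SST-rich cells.

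Scaling matters for the smallest of these values. Without TMM scaling the median log2 fold change of all genes was 0.186 in TPH1-rich and 0.105 in SST-rich over INS-rich cells, against -0.002 and 0.001 with it. KRT8 and S100A11 then had 0.087 and 0.075 in TPH1-rich over INS-rich cells, where TMM gave -0.10 and -0.11; neither was called either way. VIM in TPH1-rich over INS-rich cells passed at 0.50 without TMM.

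Among other intermediate filament genes more were called lower than higher against INS-rich cells, on small counts. Of all genes tested, 38.1% were called in GCG-rich, 23.6% in SST-rich and 40.5% in TPH1-rich over INS-rich cells, in similar numbers each way. The counts of called genes below are to be read beside these shares. Of 19 other keratins only KRT10 and KRT222 had enough counts to be tested, and KRT10, a keratin of stratified epithelium, was lower in GCG-rich (-0.23, adjusted p = 0.0303), SST-rich (-0.41, adjusted p = 0.00231) and TPH1-rich cells (-0.46, adjusted p = 0.000271) than in INS-rich cells. Of 14 other intermediate filament genes 10 were tested. In GCG-rich over INS-rich cells 1 rose and 4 fell (list median -0.50, all genes 0.017), in SST-rich over INS-rich cells 0 rose and 3 fell (-0.17, all genes 0.001), and in TPH1-rich over INS-rich cells 1 rose and 4 fell (-0.25, all genes -0.002). The genes that fell included neuronal filaments. NEFM, a neurofilament subunit, stood at 75.3, 50.5 and 61.9 CPM in GCG-rich and 74.3, 59.4 and 69.0 CPM in TPH1-rich cells, against 245, 212 and 251 CPM in INS-rich cells of the CD49a-positive, CD49a-negative and unsorted libraries. Its log2 fold changes were -1.94 in GCG-rich, -1.28 in SST-rich and -2.0 in TPH1-rich over INS-rich cells. PRPH, the peripheral-neuron filament peripherin, had -4.05, -4.32 and -3.69 in the GCG-rich, SST-rich and TPH1-rich contrasts, and NEFL, the light neurofilament subunit, had -2.25, -1.89 and -1.18. Unlike NEFM, neither was among the genes called at 2-fold or more with at least 50 CPM in 1 of the 12 sums. The levels of PRPH and NEFL are not given here. VIM and these filaments of neurons ran in opposite directions in GCG-rich and SST-rich cells relative to INS-rich cells. KRT10, PRPH, NEFL, CDH1, CDH2, EPCAM, DSP, EZR and TPM2 were named after their values were seen.

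Cadherins and their regulators differed between TPH1-rich and INS-rich cells, where the VIM call depends on the settings (0.31, not called, but 0.50 and called without TMM). ZEB1, a repressor of epithelial genes, stood at 244, 224 and 288 CPM in TPH1-rich against 89.6, 91.6 and 95.8 CPM in INS-rich cells of the CD49a-positive, CD49a-negative and unsorted libraries. It rose by 1.26 in TPH1-rich over INS-rich cells (adjusted p = 9.01e-09) and fell in GCG-rich (-0.31, adjusted p = 0.00716) and SST-rich cells (-0.39, adjusted p = 0.00741), the classes where VIM rose. N-cadherin (CDH2) rose in TPH1-rich over INS-rich cells by 0.86 (adjusted p = 4.05e-07), while E-cadherin (CDH1) fell, at -0.92 (adjusted p = 4.60e-07), as did the epithelial adhesion molecule EPCAM, at -0.36 (adjusted p = 0.00151). In GCG-rich over INS-rich cells CDH1 rose by 0.35 (adjusted p = 0.00205) together with VIM. The list of epithelial-mesenchymal transition regulators held ZEB1 and also CDH2, a cadherin and not a regulator. Of its 9 genes 5 were tested: 3 rose and 2 fell in GCG-rich, 2 rose and 1 fell in SST-rich, and 4 rose and 0 fell in TPH1-rich over INS-rich cells. ZEB1 and CDH2, given above, are among these 4. Of 12 epithelial junction genes, all tested, 4 rose and 1 fell in GCG-rich, 2 rose and 1 fell in SST-rich, and 2 rose and 5 fell in TPH1-rich over INS-rich cells. The shares of all genes called in these contrasts were 38.1%, 23.6% and 40.5%.

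Of 12 filament linkers and desmosome genes 11 were tested, and 3 rose and 3 fell in GCG-rich, 2 rose and 3 fell in SST-rich, and 3 rose and 4 fell in TPH1-rich over INS-rich cells. PKP4, a plakophilin of cell junctions, stood at 94.3, 123 and 154 CPM in TPH1-rich against 30.2, 38.3 and 39.4 CPM in INS-rich cells of the CD49a-positive, CD49a-negative and unsorted libraries (log2 fold change 1.62, adjusted p = 1.09e-07). DSP, desmoplakin, which ties keratin filaments to desmosomes, fell in TPH1-rich over INS-rich cells, at -0.91 (adjusted p = 1.55e-07), the class in which KRT18 was called higher. All 20 actin and actin-binding genes were tested, and 6 rose and 3 fell in GCG-rich, 3 rose and 7 fell in SST-rich, and 3 rose and 7 fell in TPH1-rich over INS-rich cells. MYL12A, a myosin regulatory light chain, fell in TPH1-rich cells, at -1.15 (adjusted p = 3.34e-07). EZR, the membrane-actin linker ezrin, rose in GCG-rich cells by 0.68 (adjusted p = 4.60e-06) and fell in TPH1-rich cells, at -0.49 (adjusted p = 0.000391). TPM2, a tropomyosin of muscle-type actin filaments, rose in GCG-rich cells by 3.01, in SST-rich cells by 2.83 and in TPH1-rich cells by 1.63 (adjusted p = 1.94e-05, 0.00208 and 0.0226 in that order of contrasts). Its level stayed under 50 CPM in each of the 12 sums of library and class. Of 18 other S100 genes 8 were tested, of which 3 rose and 1 fell in GCG-rich, 2 rose and 2 fell in SST-rich, and 2 rose and 0 fell in TPH1-rich over INS-rich cells. Of 11 other annexins 8 were tested, of which 4 rose and 3 fell in GCG-rich, 0 rose and 4 fell in SST-rich, and 1 rose and 3 fell in TPH1-rich over INS-rich cells. Beside the counts of these lists, 38.1%, 23.6% and 40.5% of all genes tested were called in the GCG-rich, SST-rich and TPH1-rich contrasts.

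The genes most like each member were found by Pearson correlation of log2(CPM + 10) over the 12 sums among 5168 genes with at least 50 CPM in 1 of them. The sums share libraries and depth by class, so the values describe likeness and carry no test. VIM was most like IGFBP2, an insulin-like growth factor binding protein (r = 0.976), followed by TMEM176A (0.963), SELENOP (0.953), GSTP1 (0.948) and CTSB (0.943). IGFBP2 averaged 256 CPM in GCG-rich, 173 in SST-rich, 65.0 in TPH1-rich and 44.4 in INS-rich cells, the same order as VIM. KRT19 was most like APIP (0.932), C3orf14, CNTN5, TRNP1 and CMAS. Among these CNTN5, a neuronal adhesion protein, averaged 79.8 CPM in GCG-rich, 200.4 in SST-rich, 36.6 in TPH1-rich and 12.6 in INS-rich cells. KRT18 was most like MGST3 (0.971), NDUFA4, RBM42, FAM50A and DYNLL1, and KRT8 most like MZT2A (0.936), FIBP, EDF1, PPM1G and SPATC1L. KRT8 and KRT18 thus shared none of their 5 nearest genes. The genes most like KRT7 included SMCO4 (0.886), VTN, HMGN3 and GNG5, and those most like S100A11 included SAT1 (0.927), PFN2, SCGN and PRR13. ANXA2 was most like HIST2H2BE (0.894), TSG101, SDCBP, FAM210B and CFAP36.

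The sort allowed a comparison of CD49a-positive and CD49a-negative cells with unsorted cells and with each other. With 1 library per group there is no replicate and no test, and the intervals cover counting error only. A gene was eligible with at least 50 CPM and 50 UMIs in the higher library, and counted as apart at 2-fold or more with 10 CPM added to both sides. Over all kept cells VIM was 146 CPM in the CD49a-positive against 305 CPM in the unsorted library, 2.09-fold lower (95% interval 2.05 to 2.12). It was 558 CPM in the CD49a-negative library, 1.83-fold higher than in the unsorted library (1.80 to 1.85), and 3.81-fold lower in the CD49a-positive than in the CD49a-negative library (3.75 to 3.88). VIM was the 1 member past 2-fold in CD49a-positive over unsorted cells, of 4 eligible, where 0.319% of all eligible genes were. Its log2 ratio of -1.01 lay just past that limit, and it was short of it at -0.89 after thinning to 10000 UMIs, -0.86 with 50 CPM added, -0.98 with median-of-ratios size factors, -0.98 with each cell weighted equally and -0.51 at the class mix of the unsorted library. In CD49a-positive over CD49a-negative cells it was 1 of 5 eligible, against 1.46% of all genes, and in CD49a-negative over unsorted cells no member of 5 passed, against 0.0241%.

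The other members lay in the same order of libraries as VIM. In the CD49a-positive, CD49a-negative and unsorted libraries KRT8 was 176, 221 and 190.4 CPM, KRT18 81.8, 118 and 105 CPM, and KRT19 37.2, 60.6 and 47.1 CPM. S100A11 was 117, 177 and 126 CPM, KRT7 8.28, 17.8 and 11.8 CPM, and ANXA2 3.55, 9.32 and 4.91 CPM in the same libraries. All 7 were lowest in the CD49a-positive and highest in the CD49a-negative library. The ANXA2 fold of CD49a-negative over unsorted cells was 1.90 (95% interval 1.70 to 2.12, counting error only). That fold rests in part on few cells: 6 CD49a-negative cells held 355 of 788 ANXA2 UMIs, and 6 unsorted cells held 92 of 541. Outside these cells ANXA2 was 5.15 CPM in the CD49a-negative and 4.09 CPM in the unsorted library. The 5 eligible members had a median log2 ratio of -0.56 in CD49a-positive over CD49a-negative cells, all 5 below 0, beside a median of 0.03 and 46.3% below 0 over all eligible genes. KRT19 was eligible here only through its CD49a-negative level, and the genes were chosen with earlier results of these data known. The count of 5 is therefore a description only. Summed mesenchymal markers ran the same way, at 4.13, 12.1 and 6.65 CPM over 8 genes of which none reached 10 CPM in any of the 3 libraries. Duct markers other than KRT19 and KRT7 summed to 11.2, 20.2 and 17.1 CPM and proliferation markers to 16.2, 34.9 and 26.2 CPM in the CD49a-positive, CD49a-negative and unsorted libraries. Their part in the differences was not tested.

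The VIM difference between libraries was smaller at equal class make-up. GCG-rich cells made up 8.02%, 20.6% and 15.5% and INS-rich cells 59.8%, 18.2% and 31.6% of kept cells in the CD49a-positive, CD49a-negative and unsorted libraries. GCG-rich cells held 30.5%, 40.0% and 36.7% of all VIM UMIs there but 6.58%, 22.6% and 14.6% of all UMIs. When the class levels were weighted by the class mix of the unsorted library, VIM was 212 CPM for the CD49a-positive and 451 CPM for the CD49a-negative library, against 305 CPM in the unsorted library. The log2 ratio of CD49a-positive over unsorted cells was then -0.51, where it was -1.01 with each library's own mix, and that of CD49a-positive over CD49a-negative cells -1.05, where it was -1.86.

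**Figure D5:**
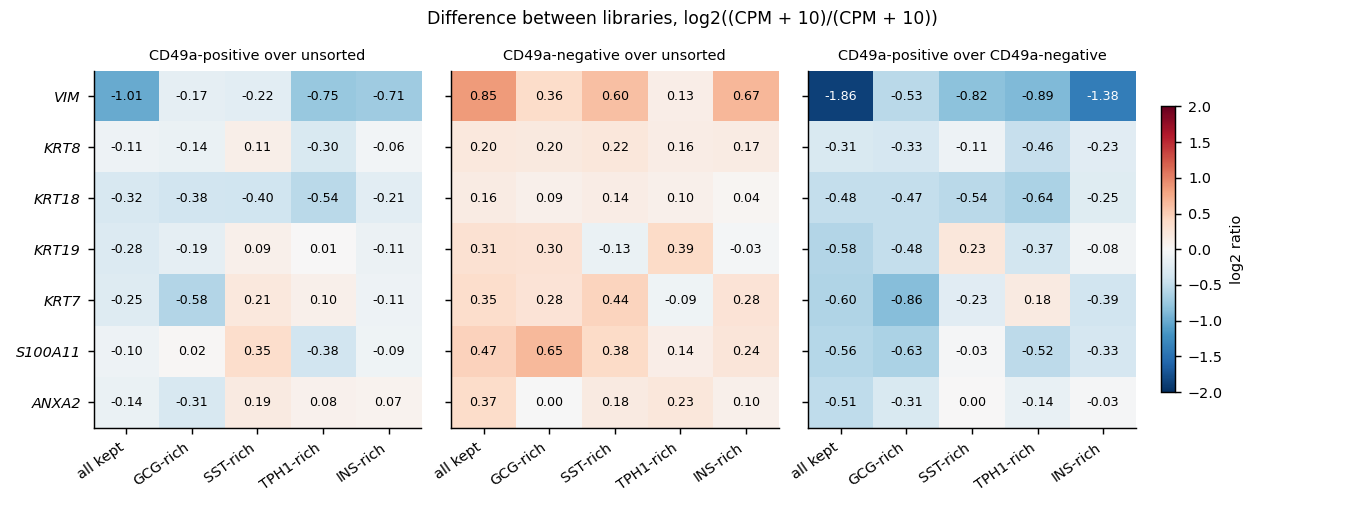
Log2 ratio of CPM with 10 CPM added to both sides for each of the 7 genes (rows) in CD49a-positive over unsorted, CD49a-negative over unsorted and CD49a-positive over CD49a-negative cells, for all kept cells and for each class (columns). Colour gives the ratio; VIM in all kept cells reads -1.01, 0.85 and -1.86 for the 3 pairs.

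Within each class VIM was lowest in the CD49a-positive and highest in the CD49a-negative library. The CD49a-positive level was below the CD49a-negative level 1.45-fold in GCG-rich (95% interval 1.41 to 1.5), 1.79-fold in SST-rich (1.64 to 1.96), 1.93-fold in TPH1-rich (1.70 to 2.19) and 2.84-fold in INS-rich cells (2.72 to 2.96). INS-rich cells were thus the 1 class past 2-fold, with 1 of 4 eligible members and 0.199% of all eligible genes. The INS-rich log2 ratio of -1.38 became -0.83 among INS-rich cells under 1000 CPM of GCG, which is under 2-fold. Median GCG in INS-rich cells was 105 CPM in the CD49a-positive, 249 CPM in the CD49a-negative and 173 CPM in the unsorted library, the order of VIM.

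In every other class and pair no member passed 2-fold. In INS-rich cells the background was 0.0769% of eligible genes for CD49a-positive over unsorted and 0.0254% for CD49a-negative over unsorted cells. In GCG-rich cells it was 0.0254%, 0.0516% and 0.173% for CD49a-positive over unsorted, CD49a-negative over unsorted and CD49a-positive over CD49a-negative cells. In SST-rich cells it was 0.975%, 0.0959% and 0.838% for these pairs, and in TPH1-rich cells 0.621%, 0.111% and 1.46%. A count of 0 among 4 or 5 eligible members is therefore near the background. Below 2-fold, KRT18 had log2 ratios of CD49a-positive over CD49a-negative cells of -0.47 in GCG-rich, -0.54 in SST-rich, -0.64 in TPH1-rich and -0.25 in INS-rich cells. KRT8 had -0.33, -0.11, -0.46 and -0.23 in the same order of classes, so both chains of the pair were lower in the CD49a-positive library in each class. S100A11 had -0.63, -0.03, -0.52 and -0.33. KRT19 was the exception in SST-rich cells, with 0.23 there against -0.48 in GCG-rich, -0.37 in TPH1-rich and -0.08 in INS-rich cells. KRT7, too low to be eligible, had -0.86 in GCG-rich, -0.23 in SST-rich, 0.18 in TPH1-rich and -0.39 in INS-rich cells.

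Unlabelled cells held VIM at 200.1, 642 and 380 CPM in the CD49a-positive, CD49a-negative and unsorted libraries, the same order as in the classes. They carried 25.9%, 36.5% and 30.7% of all VIM UMIs. Among unlabelled cells under 1000 CPM of GCG the VIM level was 113, 525 and 243 CPM. Summed mesenchymal markers in unlabelled cells were 4.32, 23.0 and 10.6 CPM, against 5.21, 4.28 and 4.59 CPM in GCG-rich and 3.81, 5.08 and 4.47 CPM in INS-rich cells of those libraries. In SST-rich cells, the other class where VIM rose, they were 6.81, 9.98 and 12.3 CPM, above INS-rich cells in each library, and in TPH1-rich cells 4.62, 15.2 and 7.99 CPM. No more than 1 of the 8 markers reached 10 CPM in any of these classes and libraries, and their part in the VIM levels was not tested.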

How the data were processed

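The 3 single-cell libraries were deposited by the authors as matrices of UMI counts, 1 row a gene and 1 column a barcode (build GRCh38 and Cell Ranger 7.1.0 stand in the submitters' processing notes); no per-sample column was left unmapped (0). Total counts were 127119509 in the CD49a-positive, 88397368 in the CD49a-negative and 114479071 in the unsorted library. From these counts, barcodes under 1000 genes or over 20% mitochondrial UMIs were dropped, and cells were classed by INS, GCG, SST and TPH1 as described. Cells past 2 or more cuts (90, 95 and 116 in those libraries) were set apart; no doublet caller was run. Sums of UMIs were scaled to CPM. Libraries were compared without a test, with exact 95% Poisson intervals, and shares with exact binomial (Clopper-Pearson) ones. Intervals cover counting error only.

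Class contrasts used edgeR 4.0.16 (R 4.3.3, limma 3.58.1; filterByExpr, TMM, glmQLFit and glmQLFTest) on 12 sums, with the library as a block because the classes of a library come from 1 cell suspension; the code was tested on simulated data. Contrasts not against INS-rich cells were added after the data were seen. pydeseq2 0.5.4 was an alternative. Other steps used Python 3.11.15 with numpy 2.4.6, scipy 1.17.1, pandas 2.3.3 and matplotlib 3.10.9. Whether the libraries came from separate cultures is not given, so their spread may be partly technical.

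The 7 genes and all gene lists were chosen with earlier results of these data known. Beside the 7, the rule named the 5 most similar genes of each and at most 4 genes of a list past 2-fold and the threshold; a few of these are not reported here. VIM-AS1 had 1294 UMIs where VIM had 98684, and KRT7-AS had 10 where KRT7 had 3814. Alternatives were other filters, class cuts, depths, scalings and left-out libraries.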

Additional observations from a re-analysis of the deposited data

Results flagged for a closer look

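Barcodes set aside by the filter held some of the 7 genes above the level of the unsorted library's own set-aside barcodes. All 7 genes were looked at in the CD49a-positive and the CD49a-negative library. In 4 cases the level was higher, the 95% Poisson intervals were apart and at least 50 UMIs stood behind the value. The share of all genes meeting this rule is not given here, so the count says nothing about the list. VIM stood at 167 CPM in the set-aside barcodes of the CD49a-negative library, against 107 CPM in those of the unsorted library. KRT8 stood at 157 CPM in those of the CD49a-positive library, against 134 CPM in those of the unsorted library. S100A11 stood at 147 CPM in the CD49a-positive and 145 CPM in the CD49a-negative set-aside barcodes, against 120.5 CPM in those of the unsorted library. KRT19 went the other way with intervals apart. It stood at 21.2 CPM (16.8 to 26.3, 81 UMIs) in the CD49a-negative set-aside barcodes, against 32.0 CPM (26.9 to 37.8) in those of the unsorted library. The median set-aside barcode held 781, 2532 and 2805 UMIs in the CD49a-positive, CD49a-negative and unsorted libraries.

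S100A11 and ANXA2 differed between CD49a-positive and unsorted cells in opposite directions in different classes. S100A11 had a CD49a-positive over unsorted fold of 1.32 in SST-rich cells (95% interval 1.05 to 1.66), 0.936 in INS-rich cells (0.906 to 0.967) and 0.754 in TPH1-rich cells (0.663 to 0.855). ANXA2 had a fold of 0.428 in GCG-rich cells (0.242 to 0.719) and 1.27 in INS-rich cells (1.01 to 1.61). The ANXA2 values rest on 18 UMIs in CD49a-positive and 84 in unsorted GCG-rich cells, and on 246 in CD49a-positive and 110 in unsorted INS-rich cells. At least 10 of the 246 came from 1 cell, and the lower limit of that fold, 1.01, lies close to no difference. ANXA2 was also too low to be eligible, at 3.05 CPM in CD49a-positive and 2.40 CPM in unsorted INS-rich cells. With 1 library per group the differences between classes were not tested.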

How the results depend on the processing

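Of 357 refitted log2 fold changes of single members over INS-rich cells, 5 changed sign, 9 lost their call and 19 gained one; the other 324 kept both. The 5 sign changes were in values that were not called: KRT18 in GCG-rich cells (-0.113 to 0.0403 over the fits that leave out 1 library, the positive value without the CD49a-positive one), ANXA2 in SST-rich cells thinned to 10000 UMIs (-1.11), KRT8 in TPH1-rich cells on CPM without TMM (0.0868) and with a filter of 2000 genes and 10% mitochondrial UMIs (0.0144), and S100A11 in TPH1-rich cells without TMM (0.0751). The calls of VIM, KRT19 and KRT7 in GCG-rich cells and of VIM, KRT19 and S100A11 in SST-rich cells over INS-rich cells held under every alternative run. All 9 lost calls were in TPH1-rich over INS-rich cells, and not every one of them is named in the paragraphs on single genes. There VIM, not called in the fit reported, passed under 9 alternatives at 0.28 to 1.0, the highest with the class cut at 0.4 of the percentile.

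Genes called in GCG-rich over INS-rich cells numbered 6641, in SST-rich 4120 and in TPH1-rich 7056. Leaving out 1 library gave 3826 to 6241, 2178 to 3879 and 3782 to 6784; thinning gave 4160, 2135 and 4753; without the library block 4549, 2759 and 4854 were called. The block pairs classes of 1 library. Without it 2 members in place of 4 were called in TPH1-rich over INS-rich cells, and leaving out 1 library gave 2 to 4. pydeseq2 called 6019, 3959 and 6424 genes. Between libraries no paired analysis was possible because each group is 1 library.

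Members past 2-fold in CD49a-positive over unsorted cells numbered 0 in place of 1 after thinning, with 50 CPM added, with median-of-ratios size factors, with cells weighted equally and at the unsorted class mix. In CD49a-negative over unsorted cells 1 in place of 0 passed among cells low in GCG, and in INS-rich CD49a-positive over CD49a-negative cells 0 in place of 1. Where no member had passed, 1 did in SST-rich CD49a-positive over unsorted cells with equal weights; in SST-rich CD49a-positive over CD49a-negative cells 2 did after thinning and 1 with equal weights. In TPH1-rich cells 1 passed in CD49a-positive over unsorted cells (stricter filter, low GCG), in CD49a-negative over unsorted cells (cut at 0.1) and in CD49a-positive over CD49a-negative cells (stricter filter, thinning, cut at 0.1, low GCG). The shares of all eligible genes past 2-fold under these alternatives are not given here, so the counts are not a result about the members. Thinned SST-rich cells numbered only 34 in the CD49a-positive and 87 in the CD49a-negative library. The settings of class mix, low GCG, no TMM and high-ANXA2 cells were chosen after seeing the data.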

Other observations

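Part of the ANXA2 UMIs lay in few cells. Cells with at least 200 CPM and 10 UMIs of ANXA2, a rule chosen after the data were seen, numbered 4 of 2394 in the CD49a-positive, 6 of 1976 in the CD49a-negative and 6 of 2256 in the unsorted library. They held 46 of 434 ANXA2 UMIs (10.6%) in the CD49a-positive, 355 of 788 (45.1%) in the CD49a-negative and 92 of 541 (17.0%) in the unsorted library. Of these cells 2, 5 and 6 were unlabelled in the CD49a-positive, CD49a-negative and unsorted libraries. The others were 1 INS-rich and 1 TPH1-rich cell of the CD49a-positive library and 1 TPH1-rich cell of the CD49a-negative library. VIM in all the high-ANXA2 cells stood at 1345, 5494 and 2462 CPM, against 145, 532 and 301 CPM in all other kept cells of the CD49a-positive, CD49a-negative and unsorted libraries. S100A10, which binds ANXA2, stood at 795, 1939 and 752 CPM in them, and S100A11 at 132, 1690 and 622 CPM.

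The 6 cells of the CD49a-negative library summed to 1266 CPM of ANXA1, with a UMI in 3 of them, and 324 CPM of the collagen gene COL3A1, with a UMI in 2 of them. In all 6 together INS stood at 614 CPM and the endocrine granule gene CHGA at 2226 CPM. The 4 cells of the CD49a-positive library had 0 UMIs of ANXA1 and of COL3A1, 9041 CPM of CHGA and 15865 CPM of INS. With so few cells the levels describe those cells only. Keratins were high in the same CD49a-negative cells, with KRT8 at 874, KRT18 at 769 and KRT19 at 826 CPM against 217, 115 and 56.7 CPM in the other cells of that library, each with a UMI in 5 of the 6 cells. VIM and keratin UMIs thus stood side by side in these sums, and ANXA2 in unlabelled cells as a whole was 5.61, 18.6 and 9.54 CPM in the CD49a-positive, CD49a-negative and unsorted libraries.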
